A study of Mus musculus with 12 samples.

Results

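The genes described are the C/EBP transcription factors and the myeloid factors that act beside them, 9 genes of the 46986 features of the table, chosen by symbol: Cebpa, Cebpb, Cebpd, Cebpe, Cebpg, Cebpz, Spi1, Irf8 and Gfi1. All 9 were found, each on 1 feature. Bulk RNA came from sorted bone marrow hematopoietic stem cells (HSCs) of C57BL/6 mice aged 12 weeks, in 4 groups of 3 libraries made from 2000 cells each. Ctrl mice had no treatment. ABX and ABX 5-FU mice had vancomycin, metronidazole, neomycin and ampicillin in their drinking water for 4 to 6 weeks. Ctrl 5-FU and ABX 5-FU mice were given 5-fluorouracil, an antimetabolite that kills dividing marrow cells, once into a vein at 200 mg/kg, and were analysed on day 12. Expression is in RPKM, reads scaled to the length of the gene and to the mapped reads of the library, and is given as mean ± SD over n = 3 libraries. The labels do not say whether libraries of a group came from separate animals, so the p-values cover the variation between libraries and nothing wider. In bulk RNA, fewer cells of a type and less RNA per cell cannot be told apart.

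C/EBP proteins are basic leucine zipper factors. They bind DNA as dimers through a conserved basic region and switch on myeloid genes. C/EBPα is needed for the step to granulocyte and monocyte progenitors, C/EBPβ for granulocyte production under stress, and C/EBPε for late neutrophil maturation. PU.1, encoded by Spi1, drives myeloid and lymphoid genes and works with C/EBPα, IRF8 steers progenitors to monocytes and dendritic cells, and GFI1 is a repressor that favours neutrophils and restrains HSC division.

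Family members share coding sequence, so reads could be shared between them. In GENCODE M21 transcripts, the longest identical run between the coding sequences of any 2 of the 9 genes was 29 bases, between Cebpa and Cebpb. Cebpz shares the family name but encodes a protein that works in the nucleolus and has no basic zipper.

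The libraries differed in depth, and several stood apart from their group in marker content. Depth estimated from the value of 1 read in genes with 1 transcript was 27.9 to 54.8 M reads, and was 44.2 to 54.8 M in Ctrl against 29.2 to 37.8 in ABX libraries. The summed RPKM was lower after 5-FU, 142127 to 157119 against 165097 to 176924, and rescaling to one total shifted the all-gene median log2 change after 5-FU from 0.0045 to 0.14 without and from -0.014 to 0.12 with antibiotics. HSC markers summed to 146 to 230 RPKM in every library, and 9 of the 10 reached 1 RPKM somewhere. Mecom did not. Stromal and endothelial markers summed to 15.2 RPKM in Ctrl 5-FU replicate 1 and 29.1 in ABX 5-FU replicate 1, against 1.02 to 6.02 in the other libraries. Erythroid markers were high in Ctrl replicate 1 (305 RPKM, against 28.6 and 41.4) and ABX 5-FU replicate 3 (510, against 167 and 179), megakaryocyte markers in Ctrl 5-FU replicate 1 (392, against 115 and 94.5) and neutrophil markers in Ctrl 5-FU replicate 3. The i7 index also changed with 5-FU: none was used both with and without it, so effects of index and drug cannot be told apart.

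At steady state 3 of the 9 genes were well above 1 RPKM and 6 were below it. In Ctrl libraries the order of the means was Cebpz (3.01 ± 0.227 RPKM), Spi1 (2.89 ± 0.189), Cebpg (2.83 ± 0.507), Cebpd (0.536 ± 0.165), Irf8 (0.448 ± 0.0823), Cebpa (0.308 ± 0.195), Cebpb (0.206 ± 0.126), Gfi1 (0.103 ± 0.0173) and Cebpe (0.052 ± 0.0189). Neighbours in this order overlapped except at 2 places: Cebpg lay above Cebpd in every Ctrl library, and Gfi1 above Cebpe. On day 12 the order had a different head. Cebpd came first in Ctrl 5-FU libraries at 5.98 ± 1.80 RPKM, above Spi1 at 3.85 ± 0.608, Cebpg at 3.45 ± 0.889 and Cebpz at 3.33 ± 0.216, and Cebpa came last at 0.0977 ± 0.0258.

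Tests were run with limma on log2(RPKM + 1) for genes that reached 1 RPKM in 3 or more libraries, with Benjamini-Hochberg adjustment over all 8553 such genes. Of the 9 genes, 4 passed this filter: Cebpd, Cebpg, Cebpz and Spi1. Cebpd reached 1 RPKM in 7 libraries, the 6 from 5-FU mice and ABX replicate 1, so it passed through the groups where it is high. Irf8 and Gfi1 reached 1 RPKM in 2 libraries each, and Cebpa, Cebpb and Cebpe in 0. For these 5 genes the values are described, and a fit with no filter gives a test as an alternative. A single gene compared by an exact permutation test of 3 against 3 libraries cannot go below p = 0.1, so none was run.

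**Figure D1:**
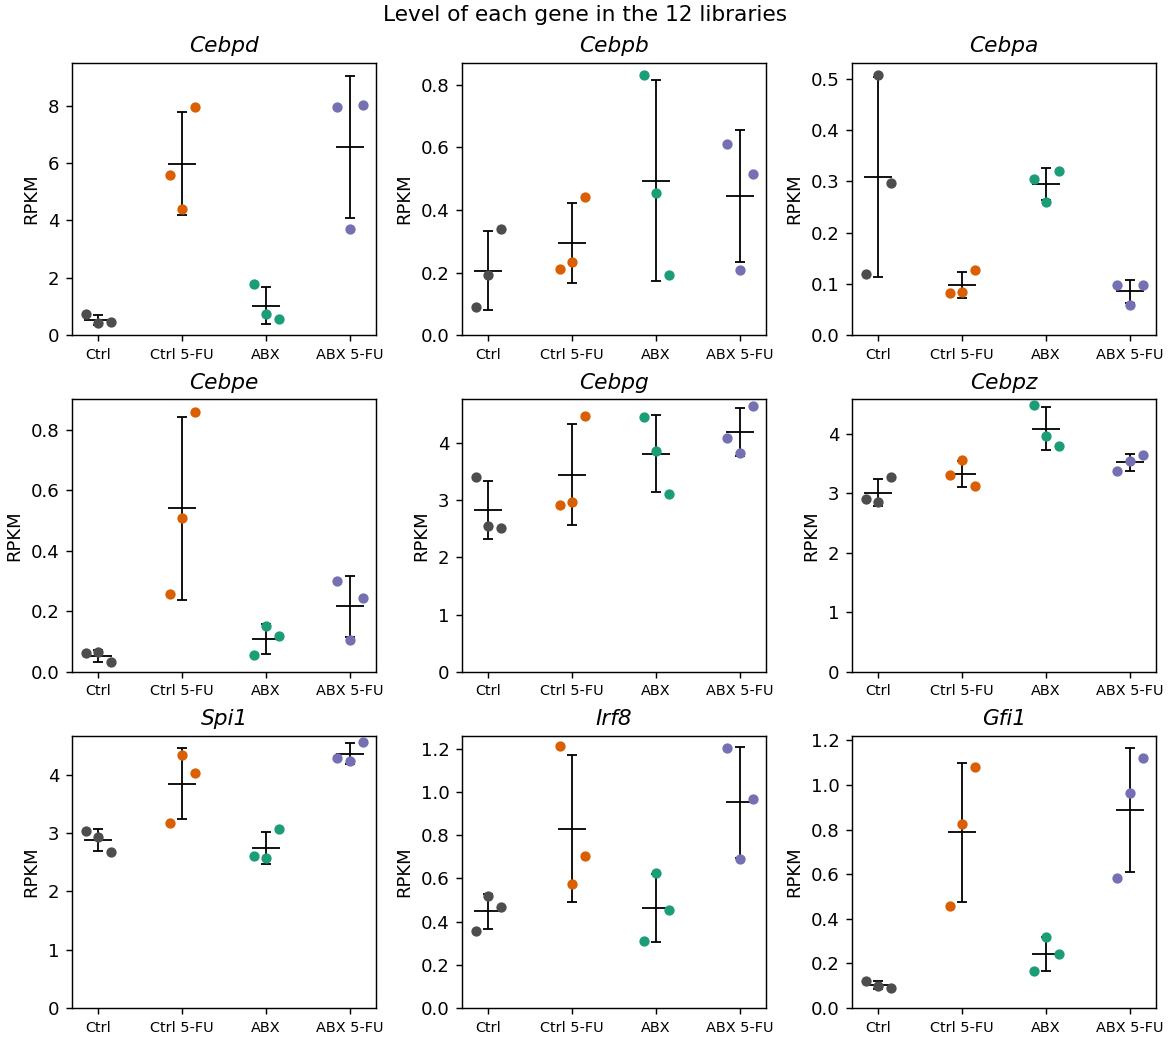
RPKM of each of the 9 genes (vertical axes, from 0) in the 4 groups. Points are libraries with replicates 1, 2 and 3 from left to right, and bars are mean ± SD (n = 3). Cebpd stood between 3.70 and 8.04 RPKM in the 6 libraries from 5-FU mice and between 0.421 and 1.77 RPKM in the other libraries.

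The comparison of Ctrl 5-FU with Ctrl addresses the state of HSCs 12 days into recovery, without antibiotics. Of the 4 genes tested, Cebpd and Spi1 rose and 0 fell, beside 21.6% of all genes tested that were called, 9.74% higher and 11.8% lower. With no filter, 3 of 9 were called, Cebpd, Cebpe and Gfi1, all higher, beside 5.11% of 26832 features.

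Cebpd encodes C/EBPδ, which cytokines of the interleukin-6 type switch on through STAT3. Its level was 0.725, 0.421 and 0.462 RPKM in Ctrl replicates 1, 2 and 3 and 5.58, 4.41 and 7.94 RPKM in Ctrl 5-FU replicates 1, 2 and 3. The lowest 5-FU library stood far above the highest control library. The mean was 11.1-fold higher, and the log2 change was 2.16 ± 0.28 (SE, adjusted p = 0.000973 with limma), with 1.96 to 3.24 and adjusted p = 0.000485 to 0.00819 over 18 alternatives. The table lists Cebpd as a pseudogene on a feature of 1181 bases (chromosome 16, 15887286 to 15888466, plus strand), while GENCODE M21 has a protein-coding gene of 3746 bases from the same start, so reads from the rest of the transcript are not in these values.

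Spi1 (chromosome 2, 91082390 to 91115756) stood at 3.04, 2.94 and 2.67 RPKM in Ctrl and 3.17, 4.34 and 4.03 RPKM in Ctrl 5-FU libraries. The groups did not overlap, but Ctrl 5-FU replicate 1 lay close to the controls. The log2 change was 0.31 ± 0.095 (adjusted p = 0.037). The call was lost without Ctrl replicate 1 (adjusted p = 0.0594), replicate 2 (0.0669) or replicate 3 (0.125), without Ctrl 5-FU replicate 2 (0.118) or replicate 3 (0.119), and without ABX 5-FU replicate 1 (0.0514), replicate 2 (0.0515) or replicate 3 (0.0508), which enter through the shared spread. With no filter it was lost too (adjusted p = 0.0885).

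Cebpg and Cebpz were not called. Cebpg, whose product pairs with other C/EBP proteins and lacks an activation domain, stood at 3.42, 2.56 and 2.52 RPKM in Ctrl and 2.91, 2.97 and 4.48 RPKM in Ctrl 5-FU libraries (log2 change 0.21 ± 0.15, adjusted p = 0.34). The groups overlapped. Cebpz stood at 2.86 to 3.27 RPKM in Ctrl and 3.12 to 3.56 RPKM in Ctrl 5-FU libraries (log2 change 0.11 ± 0.074, adjusted p = 0.311). After rescaling to one total Cebpz was called at 0.25 (adjusted p = 0.0395). Cebpz (chromosome 17, 78919006 to 78937070, minus strand) overlaps Cebpzos on the plus strand, which reached 5.94 RPKM, and the strand setting of the counting is not given in the sources used here, so their reads may be mixed.

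Gfi1 (chromosome 5, 107716657 to 107726036) was low in every library. It stood at 0.123, 0.098 and 0.0892 RPKM in Ctrl and 0.458, 0.826 and 1.08 RPKM in Ctrl 5-FU libraries, with all 3 5-FU libraries above all 3 controls. The mean was 7.63-fold higher. With no filter the log2 change was 0.68 ± 0.14 (adjusted p = 0.0267), and 2.06 ± 0.31 (adjusted p = 0.00933) with a pseudocount of 0.1 RPKM, which compresses low values less. Gfi1 overlaps A430072P03Rik on the other strand, which reached 0.687 RPKM.

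Cebpe, the late neutrophil factor, stood at 0.0623, 0.0635 and 0.0302 RPKM in Ctrl and 0.257, 0.508 and 0.860 RPKM in Ctrl 5-FU libraries. The groups did not overlap, and the mean was 10.4-fold higher. This ratio divides by Ctrl values of at most 0.0635 RPKM, which few reads lie behind, so its size is uncertain. With no filter the log2 change was 0.53 ± 0.12 (adjusted p = 0.041). Irf8 stood at 0.358, 0.520 and 0.466 RPKM in Ctrl and 1.21, 0.572 and 0.704 RPKM in Ctrl 5-FU libraries, again without overlap, and its log2 change with no filter was 0.32 ± 0.14 (adjusted p = 0.265). The highest Irf8 value was in Ctrl 5-FU replicate 1, the library with the high stromal and endothelial sum, whose part was not tested. The lowest 5-FU library (replicate 2, 0.572 RPKM) lay close to the highest control (replicate 2, 0.520 RPKM).

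Cebpa was the member with a lower mean on day 12. Its values were 0.120, 0.508 and 0.297 RPKM in Ctrl and 0.0816, 0.0839 and 0.127 RPKM in Ctrl 5-FU libraries, where replicate 1 of Ctrl and replicate 3 of Ctrl 5-FU overlapped. From the estimated depth these correspond to about 14 to 70 reads in Ctrl and 6 to 14 in Ctrl 5-FU libraries. With no filter the log2 change was -0.24 ± 0.086 (adjusted p = 0.158). Cebpb stood at 0.0885 to 0.338 RPKM in Ctrl and 0.210 to 0.443 RPKM in Ctrl 5-FU libraries (0.10 ± 0.17, adjusted p = 0.832), about 6 to 28 reads in Ctrl libraries. It overlaps Tmem189 on the other strand. Among all features above the floor of the table, 10.7% were higher and 9.75% lower in Ctrl 5-FU without overlap, and of the 9 genes Cebpd, Spi1, Gfi1, Cebpe and Irf8 were higher and 0 lower. Among the 8553 genes tested, which include Cebpd and Spi1, these shares were 18.6% and 18.3%.

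The same comparison with antibiotics, ABX 5-FU against ABX, gave 2 called genes of the 4 tested, again Cebpd and Spi1, both higher, beside 30.2% of all genes called, 13.7% higher and 16.5% lower. With no filter Gfi1 was called too, so 3 of 9 were higher, beside 8.64% of features.

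Cebpd stood at 1.77, 0.724 and 0.580 RPKM in ABX and 7.96, 3.70 and 8.04 RPKM in ABX 5-FU libraries, without overlap. ABX replicate 1 was the highest library without 5-FU. The log2 change was 1.89 ± 0.28 (adjusted p = 0.000966), and it stayed called in all 18 alternatives. Spi1 stood at 2.61, 2.58 and 3.07 RPKM in ABX and 4.28, 4.24 and 4.56 RPKM in ABX 5-FU libraries. The groups lay well apart, with a log2 change of 0.52 ± 0.095 (adjusted p = 0.00255, 0.000702 to 0.0138 over 17 alternatives).

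Gfi1 stood at 0.165, 0.317 and 0.242 RPKM in ABX and 0.581, 0.964 and 1.12 RPKM in ABX 5-FU libraries, and its log2 change with no filter was 0.60 ± 0.14 (adjusted p = 0.0308). Irf8 stood at 0.310, 0.627 and 0.455 RPKM in ABX and 1.20, 0.689 and 0.967 RPKM in ABX 5-FU libraries (0.41 ± 0.14, adjusted p = 0.123 with no filter). Both were higher without overlap, and the highest Irf8 value again came from the library with the high stromal and endothelial sum, ABX 5-FU replicate 1. After rescaling to one total, Irf8 and Gfi1 passed the filter and were called in both 5-FU comparisons, with adjusted p = 0.0499 for Irf8 without and 0.0193 with antibiotics, beside 27.1% and 33.6% of genes called. Their libraries without 5-FU reached at most 0.627 RPKM for Irf8 and 0.317 for Gfi1 before rescaling, so both genes entered this fit through the groups where they are high, and Irf8 was not called with no filter.

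Cebpa was lower in all 3 ABX 5-FU libraries, at 0.098, 0.0597 and 0.098 RPKM, than in the ABX libraries, at 0.306, 0.259 and 0.320 RPKM. These correspond to about 5 to 10 reads against 20 to 32. The ABX mean was 3.46-fold the ABX 5-FU mean, and the log2 change with no filter was -0.25 ± 0.086 (adjusted p = 0.112), or -1.10 ± 0.31 (adjusted p = 0.0662) with a pseudocount of 0.1 RPKM. Cebpe stood at 0.0534, 0.151 and 0.116 RPKM in ABX and 0.301, 0.104 and 0.242 RPKM in ABX 5-FU libraries, with overlap (0.13 ± 0.12, adjusted p = 0.60 with no filter). Cebpb overlapped as well, at 0.193 to 0.832 against 0.209 to 0.610 RPKM.

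Cebpg stood at 3.12 to 4.47 RPKM in ABX and 3.83 to 4.65 RPKM in ABX 5-FU libraries (0.12 ± 0.15, adjusted p = 0.59). Cebpz stood at 4.50, 3.97 and 3.80 RPKM in ABX and 3.37, 3.55 and 3.64 RPKM in ABX 5-FU libraries (-0.17 ± 0.074, adjusted p = 0.107), lower without overlap, and its change was -0.03 after rescaling to one total. Without overlap, 13.5% of features above the floor were higher and 13.6% lower, and of the 9 genes Cebpd, Spi1, Gfi1 and Irf8 were higher and Cebpa and Cebpz lower. Among the 8553 genes tested, which include Cebpd, Spi1 and Cebpz, these shares were 23.1% and 26.8%.

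**Figure D2:**
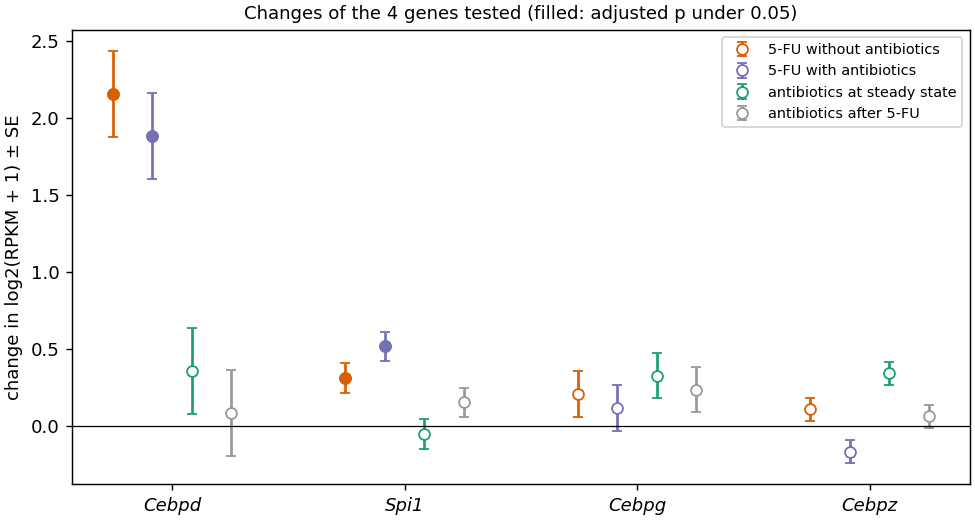
Change in log2(RPKM + 1) ± SE (vertical axis) of the 4 genes that passed the filter, in 4 comparisons of 3 against 3 libraries. Filled points passed an adjusted p of 0.05 in limma: Cebpd at 2.16 and 1.89 and Spi1 at 0.31 and 0.52 after 5-FU.

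Antibiotics left no gene of the 4 called, at steady state or after 5-FU. At steady state 0 of 4 passed in limma, beside 0.0702% of all genes. An unadjusted p under 0.05 was found for 1519 of all 8553 genes and for 2 of the 4. These were Cebpz, at 2.86 to 3.27 RPKM in Ctrl and 3.80 to 4.50 RPKM in ABX libraries without overlap (0.34 ± 0.074, adjusted p = 0.0969, 0.0699 to 0.285 over 18 alternatives), and Cebpg (0.33 ± 0.15, adjusted p = 0.279). The depth of ABX libraries was below that of Ctrl libraries without overlap, and its part in these values was not tested. Spi1 changed by -0.052 ± 0.095 (adjusted p = 0.804) and Cebpd by 0.36 ± 0.28 (adjusted p = 0.516). Among the genes below the filter, Gfi1 was higher in all 3 ABX libraries than in all 3 Ctrl libraries, at 0.165 to 0.317 against 0.0892 to 0.123 RPKM (adjusted p = 0.705 with no filter), beside 7.86% of features above the floor that were higher without overlap. For Cebpz, the share among genes tested was 13.0%.

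After 5-FU, 0 of 4 passed in limma, beside 0.117% of genes, and 0 had an unadjusted p under 0.05, beside 1275 of all 8553 genes. Cebpd differed by 0.086 ± 0.28 (adjusted p = 0.917), Spi1 by 0.15 ± 0.095 (adjusted p = 0.48), Cebpg by 0.24 ± 0.15 (adjusted p = 0.489) and Cebpz by 0.064 ± 0.074 (adjusted p = 0.721). Cebpe had a lower mean with antibiotics, 0.216 ± 0.101 against 0.542 ± 0.303 RPKM, but the libraries overlapped (adjusted p = 0.432 with no filter), and its interaction was -0.40 ± 0.17 (adjusted p = 0.841 with no filter). The interaction, which asks whether the change after 5-FU differed with antibiotics, passed for 0 of 4 genes, beside 0.0117% of genes. An unadjusted p under 0.05 was found for 1 of the 4, Cebpz (-0.28 ± 0.11, adjusted p = 0.578), beside 710 of all 8553 genes. The interaction was -0.27 ± 0.40 for Cebpd (adjusted p = 0.86) and 0.21 ± 0.13 for Spi1 (adjusted p = 0.698).

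The genes that act on C/EBP proteins were read from a list of 12 symbols, in which Cop1 and Rfwd2 name the same gene. Of these symbols, 11 were found and 9 were tested. Without antibiotics 1 rose and 2 fell after 5-FU, and with antibiotics 0 rose and 2 fell, so 3 and 2 of 9 were called beside 21.6% and 30.2% of all genes. The list's median log2 change was -0.025 and 0.076, against 0.0045 and -0.014 over all genes. Trib2, a pseudokinase that marks C/EBPα for degradation, fell from 1.56 ± 0.390 to 0.159 ± 0.093 RPKM without antibiotics (-1.14 ± 0.11, adjusted p = 0.000199) and from 1.56 ± 0.197 to 0.157 ± 0.0868 RPKM with antibiotics (-1.15 ± 0.11, adjusted p = 0.000108). Its 6 libraries without 5-FU stood at 1.32 to 2.01 RPKM and the 6 with 5-FU at 0.0565 to 0.265 RPKM. Trib2 thus passed the filter through the groups without 5-FU, where it is high. It stayed called in all 17 alternatives of both 5-FU comparisons, no filter among them.

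Trib1, a pseudokinase of the same family with the same target, moved the other way. It rose from 0.742 ± 0.133 to 1.64 ± 0.469 RPKM without antibiotics (0.58 ± 0.17, adjusted p = 0.0331). That call was lost without Ctrl replicate 1, 2 or 3 or without Ctrl 5-FU replicate 1 or 3 (adjusted p = 0.0544 to 0.0892), and with no filter. With antibiotics Trib1 stood at 0.70 ± 0.268 and 1.36 ± 0.530 RPKM. Its libraries without 5-FU reached at most 0.934 RPKM, so Trib1 passed the filter through the 5-FU groups, where it is high. Calr, whose product is a chaperone that can block C/EBPα translation, fell from 134 ± 2.61 to 109 ± 8.85 RPKM without antibiotics (-0.30 ± 0.072, adjusted p = 0.0153), and was not called after rescaling (-0.12, adjusted p = 0.213) or without Ctrl 5-FU replicate 3 (adjusted p = 0.0529). With antibiotics Calr stood at 111 ± 6.87 and 120.2 ± 2.64 RPKM (0.11 ± 0.072, adjusted p = 0.249). Ddit3, which encodes the C/EBP-related factor CHOP, was not called after 5-FU (0.24 ± 0.15, adjusted p = 0.253 without and 0.25 ± 0.15, adjusted p = 0.214 with antibiotics).

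Upstream cytokine signalling was read from 19 genes, of which 14 were tested. Without antibiotics 5 rose and 0 fell, and with antibiotics 8 rose and 0 fell, or 5 without ABX replicate 2, ABX 5-FU replicate 2 or ABX 5-FU replicate 3. Over all genes 9.74% and 13.7% were called higher. The medians were 0.29 and 0.33, against 0.0045 and -0.014 over all genes. Stat3, the factor that acts on Cebpd, rose from 5.70 ± 0.191 to 9.48 ± 1.42 RPKM without antibiotics (0.64 ± 0.10, adjusted p = 0.00243) and from 5.34 ± 0.533 to 9.06 ± 0.585 RPKM with antibiotics (0.67 ± 0.10, adjusted p = 0.0011). Socs3, another STAT3 target and a feedback inhibitor of the same receptors, rose with antibiotics from 1.79 ± 0.218 to 27.8 ± 2.66 RPKM (3.36 ± 0.17, adjusted p = 1.71e-06).

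The receptor chains did not all move alike. Csf2rb, the common beta chain of the receptors for GM-CSF, interleukin-3 and interleukin-5, rose from 1.71 ± 0.494 to 4.87 ± 0.428 RPKM without antibiotics (1.13 ± 0.12, adjusted p = 0.000346) and from 2.04 ± 0.227 to 5.03 ± 0.443 RPKM with antibiotics (0.99 ± 0.12, adjusted p = 0.000408). Its close paralog Csf2rb2, the interleukin-3 receptor chain, rose from 0.674 ± 0.0745 to 3.31 ± 0.701 RPKM (1.35 ± 0.12, adjusted p = 9.25e-05) and from 0.97 ± 0.177 to 3.07 ± 0.391 RPKM (1.04 ± 0.12, adjusted p = 0.000245). Reads shared between these 2 paralogs make both values uncertain. Without 5-FU, Csf2rb2 reached 1 RPKM only in ABX replicate 3 (1.165 RPKM), so it passed the filter through the 5-FU groups, where it is high. Csf3r, the G-CSF receptor and a C/EBPα target, stood at 5.50 ± 0.680 RPKM in Ctrl, 6.17 ± 1.82 in Ctrl 5-FU, 3.05 ± 0.627 in ABX and 2.99 ± 0.336 in ABX 5-FU libraries. Of the 14 genes tested in this list, Csf3r among them, 0 were called by limma for antibiotics, at steady state or after 5-FU. With the i7 index as a term 1 was called in each of these comparisons. Il6ra, the interleukin-6 receptor chain, was below the filter at 0.131 to 0.222 RPKM in the group means. Il6st, of the same list, was tested. It stood at 1.05 to 1.98 RPKM in Ctrl, 2.24 to 8.03 in Ctrl 5-FU, 1.37 to 1.47 in ABX and 2.825 to 5.34 in ABX 5-FU libraries. The highest values were in replicate 1 of both 5-FU groups, the libraries with the high stromal and endothelial sums.

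**Figure D3:**
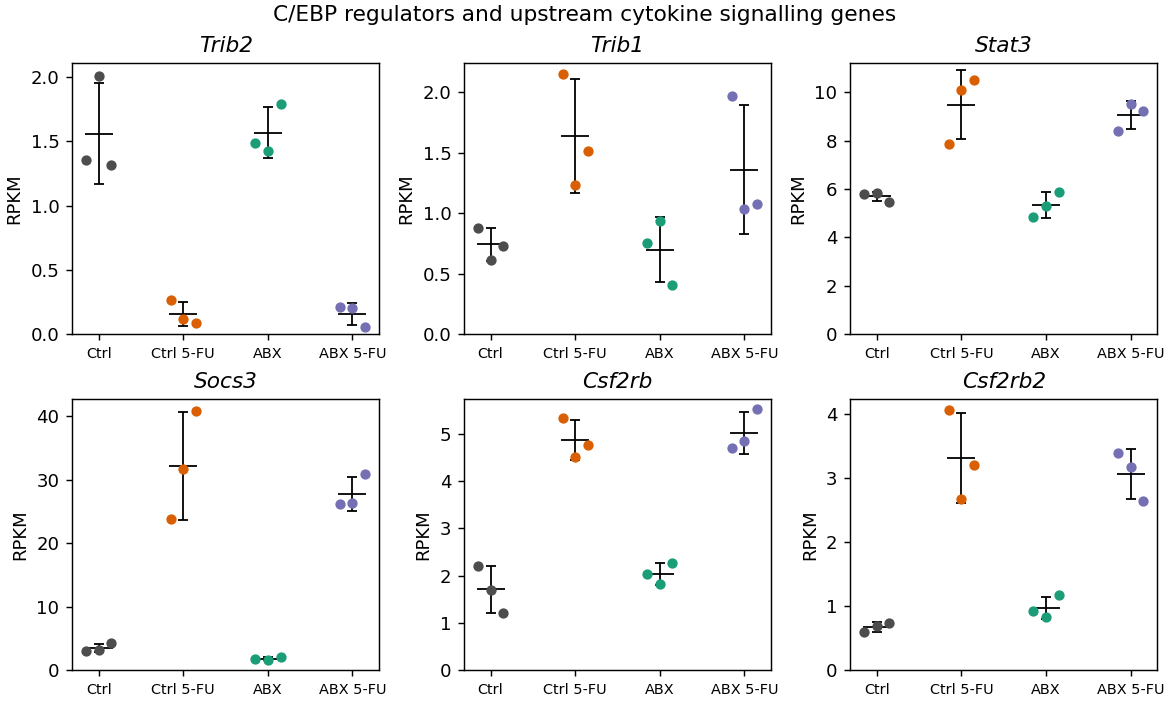
RPKM (vertical axes, from 0) of 2 pseudokinase genes that act on C/EBPα and 4 cytokine signalling genes in the 4 groups. Points are libraries with replicates 1, 2 and 3 from left to right, and bars are mean ± SD (n = 3). Trib2 was at most 0.265 RPKM in the 6 libraries from 5-FU mice, and Stat3, Socs3, Csf2rb and Csf2rb2 were higher there.

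Among 36 other lineage transcription factors, 24 were tested. Without antibiotics 6 rose and 0 fell, and with antibiotics 6 rose and 1 fell, with medians of 0.13 and 0.15. The shares called in either direction, 6 and 7 of 24, were near the 21.6% and 30.2% of all genes. The 6 of 24 called higher in each comparison stood beside 9.74% and 13.7% of all genes called higher. Junb, an AP-1 subunit, rose from 46.9 ± 8.33 to 110.3 ± 10.8 RPKM and from 45.5 ± 11.2 to 105 ± 6.29 RPKM (1.23 ± 0.17, adjusted p = 0.0012 without and 1.21 ± 0.17, adjusted p = 0.000693 with antibiotics). Gata1, the erythroid and megakaryocyte factor that PU.1 antagonises, rose from 1.51 ± 0.559 to 3.90 ± 1.45 RPKM (0.95 ± 0.19, adjusted p = 0.00641) and from 0.553 ± 0.072 to 2.83 ± 0.30 RPKM (1.30 ± 0.19, adjusted p = 0.000835). Erythroid markers summed to 28.6 to 305 RPKM in Ctrl, 144 to 230 in Ctrl 5-FU, 40.1 to 58.1 in ABX and 167 to 510 in ABX 5-FU libraries (8 markers, of which 6 passed the filter), and megakaryocyte markers to 55.4 to 143 in Ctrl, 94.5 to 392 in Ctrl 5-FU, 83.0 to 87.5 in ABX and 102 to 123 in ABX 5-FU libraries. Ctrl 5-FU replicate 1 had the highest megakaryocyte sum and the highest Gata1 level, 5.57 RPKM. The part of these cells in the Gata1 values was not tested. Nab2, a corepressor of EGR factors that PU.1 switches on with EGR2, rose from 2.97 ± 0.0695 to 4.92 ± 0.796 RPKM without antibiotics (0.57 ± 0.092, adjusted p = 0.0025) and from 3.76 ± 0.134 to 5.13 ± 0.306 RPKM with antibiotics (0.36 ± 0.092, adjusted p = 0.0127). Of 5 corepressors that work with GFI1, 3 were tested and 0 were called by limma in any comparison, with 0 at an unadjusted p under 0.05. In the 5-FU comparison without antibiotics, 1 was called when Ctrl 5-FU replicate 1 was left out, and 1 after rescaling to one total.

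Genes that C/EBP factors and PU.1 switch on were split into early and late. Of 20 early genes 12 were tested, and 2 rose and 1 fell without and 5 rose and 1 fell with antibiotics, with medians of 0.26 and 0.40. The 3 of 12 called without antibiotics were near the 21.6% of all genes, and the 6 of 12 with antibiotics stood beside 30.2%. Without Ctrl 5-FU replicate 1, 6 early genes were called in the comparison without antibiotics. Itgb2, the beta-2 integrin, rose from 1.33 ± 0.124 to 2.52 ± 0.121 RPKM (0.60 ± 0.074, adjusted p = 0.000779) and from 1.21 ± 0.141 to 2.77 ± 0.197 RPKM (0.77 ± 0.074, adjusted p = 9.82e-05). Prtn3, the neutrophil protease proteinase 3, rose with antibiotics from 14.3 ± 2.5 to 28.4 ± 3.16 RPKM (0.95 ± 0.21, adjusted p = 0.00694). Fcer1g, a signalling chain of Fc receptors, fell with antibiotics from 8.55 ± 1.69 to 4.91 ± 0.212 RPKM (-0.68 ± 0.13, adjusted p = 0.00297).

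Of 10 late granule genes 4 were tested, and 3 rose without antibiotics and 0 were called with antibiotics, where 0 had an unadjusted p under 0.05. Over all genes tested, 9.74% were called higher without and 13.7% with antibiotics. All 4 are also in the list of mature neutrophil markers, so this count and the marker sum given next are not independent. S100a8, a calcium-binding protein of neutrophils, stood at 8.14 ± 2.87 RPKM in Ctrl, 74.1 ± 62.6 in Ctrl 5-FU, 9.0 ± 2.84 in ABX and 13.8 ± 8.50 in ABX 5-FU libraries (2.70 ± 0.58, adjusted p = 0.00893 without antibiotics). S100a9 was called without antibiotics at 2.36 ± 0.54 (adjusted p = 0.012), but not with no filter (adjusted p = 0.0591). Ngp was called at 2.20 ± 0.72 (adjusted p = 0.0498), and lost the call in each of the 11 fits that left out a library other than Ctrl 5-FU replicate 1 (its log2 change was 1.22 without Ctrl 5-FU replicate 3). After 5-FU all 4 late genes had an unadjusted p under 0.05 for antibiotics against control, beside 1275 of all 8553 genes. Their median was -2.10, against 0.014 over all genes. By limma 0 of the 4 passed adjustment, against 2 without Ctrl 5-FU replicate 1 and 3 with the i7 index as a term.

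Mature neutrophil markers, 10 in all, of which Ly6g, Cxcr2, Mmp8 and Retnlg never reached 1 RPKM, summed to 9.02 to 19.5 RPKM in Ctrl libraries, 33.8, 89.1 and 256 in Ctrl 5-FU replicates 1, 2 and 3, 8.59 to 18.3 in ABX libraries and 11.5, 13.6 and 34.7 in ABX 5-FU replicates 1, 2 and 3. Across Ctrl 5-FU libraries, Cebpe and Gfi1 had the same order as this sum, with replicate 1 lowest and replicate 3 highest, and Cebpd was also highest in replicate 3. In ABX 5-FU replicates 1, 2 and 3, Cebpd stood at 7.96, 3.70 and 8.04 RPKM and Gfi1 at 0.581, 0.964 and 1.12 RPKM. Cebpe stood there at 0.301, 0.104 and 0.242 RPKM, highest in replicate 1, where the marker sum was lowest. The part of neutrophil RNA in these values was not tested. Without Ctrl 5-FU replicate 3 the change of Cebpd was 1.96 (adjusted p = 0.00519).

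**Figure D4:**
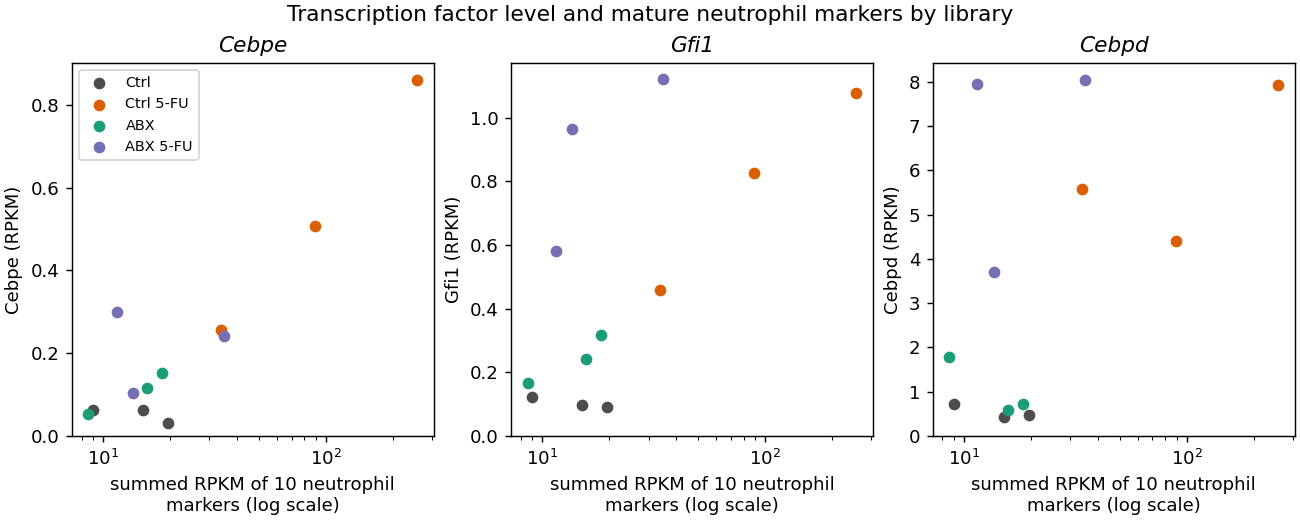
RPKM of Cebpe, Gfi1 and Cebpd (vertical axes) against the summed RPKM of 10 mature neutrophil markers (horizontal axes, log scale) in the 12 libraries, coloured by group. Marker sums ran from 8.59 to 256 RPKM, and the highest sum was in Ctrl 5-FU replicate 3, which held 0.860 RPKM of Cebpe, 1.08 of Gfi1 and 7.94 of Cebpd.

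Promoter sequences were at hand for Cebpa, Cebpb, Cebpg, Gfi1 and Irf8, 5 of the 9 genes, from RefSeq on GRCm38.p6. These are windows of 300 bases, 250 before and 50 after a start. Irf8 and Gfi1, both higher without overlap in each 5-FU comparison, are shown with matches, on either strand, to the STAT motif TTCNNNGAA and the C/EBP motif TTGCNNAA in capitals.
Irf8: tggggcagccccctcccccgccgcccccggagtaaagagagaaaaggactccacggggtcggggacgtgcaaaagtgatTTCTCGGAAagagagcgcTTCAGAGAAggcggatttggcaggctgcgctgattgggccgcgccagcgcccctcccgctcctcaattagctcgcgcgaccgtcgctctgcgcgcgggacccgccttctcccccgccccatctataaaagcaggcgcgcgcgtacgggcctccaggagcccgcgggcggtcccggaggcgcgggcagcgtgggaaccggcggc
Gfi1: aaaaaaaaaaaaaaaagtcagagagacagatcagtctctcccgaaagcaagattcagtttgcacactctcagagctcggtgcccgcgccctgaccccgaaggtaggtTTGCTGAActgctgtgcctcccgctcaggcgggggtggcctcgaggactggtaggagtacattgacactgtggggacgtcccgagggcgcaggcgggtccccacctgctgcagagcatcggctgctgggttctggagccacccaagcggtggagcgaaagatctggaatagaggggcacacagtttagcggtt
The Irf8 window (chr8:120736108-120736407, plus strand) held matches to the STAT motif starting at positions -171 and -153 from the start, a motif found in 8.3% of 32851 windows. The Gfi1 window (chr5:107725756-107726055, minus strand) held a match to the C/EBP motif at position -143, a motif found in 10.8% of windows. The other 5 windows, 1 each of Cebpa, Cebpb and Cebpg and a second one each of Irf8 and Gfi1, held 0 matches to both motifs. Further motifs were scanned in the same windows. Of these, the shorter C/EBP core GCAAT, found in 26.4% of windows, had 1 match in the Cebpb window, at position -57. A link between any match and expression was not tested.

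The genes whose pattern over the 12 libraries was most like that of the called members were found among 2770 genes with a mean of at least 5 RPKM. Likeness is the root mean square difference between log2(RPKM + 1) values, each gene centred on its own mean. For Cebpd they were Ecm1 (0.39), which encodes an extracellular matrix protein, Cd53 (0.41), a leukocyte tetraspanin, and Gadd45g (0.49), a stress-induced growth arrest gene, against a median of 1.11 over the candidates. For Spi1 they were Ccndbp1 (0.068), a cyclin D binding protein, Man2b1 (0.074), a lysosomal mannosidase, and Capg (0.075), an actin-capping protein of macrophages, against a median of 0.31. Ecm1 stood at 3.55 ± 0.826 RPKM in Ctrl, 16.7 ± 6.91 in Ctrl 5-FU, 2.87 ± 0.206 in ABX and 16.3 ± 3.61 in ABX 5-FU libraries, and Capg at 10.1 ± 0.631, 13.6 ± 1.98, 9.82 ± 1.18 and 15.8 ± 0.785 RPKM in the same order.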

How the data were processed

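Expression of 46986 features in 12 libraries was taken as RPKM from the table the authors deposited, where 0.0001 stands for 0. Partek, STAR 2.5.3a and mm10 are named in the submitters' processing notes. For counting rule, strand setting, annotation release and sort gates, nothing is given in the sources used here. Per the labels' protocols, RNA of 2000 cells went through SMART-Seq v4 and Nextera XT. Read depth was estimated from the value of 1 read in genes with 1 transcript in GENCODE M21, and it limits precision below about 1 RPKM.

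Values were tested as log2(RPKM + 1) with limma 3.58.1 in R 4.3.3, in 1 model of 4 group means over all 12 libraries (8 residual degrees of freedom, intensity trend, two-sided), called at an adjusted p of 0.05. The model was tested on simulated data. Positions come from the table, with the end taken as its stop less 1. Of the list entries, Cop1 was not matched, but the same list also holds its older symbol Rfwd2, which was found and lay below the filter. Some items of these lists and sequences are not reported here. The 7 gene lists, the members among them, the 10 marker lists and the rule for named genes (all members, Ddit3, up to 4 called genes with the smallest p per list, and the 3 genes most like each called member) were chosen with earlier results of these data known. Csf3r, Il6ra, Il6st, Mpo, Elane and Ctsg fall outside that rule and were chosen after their values were seen. Alternatives were a pseudocount of 0.1 RPKM, no filter, a filter of 5 RPKM, rescaling to one total, no trend, the i7 index as a term for antibiotic comparisons, leaving out each library, and, chosen after seeing the data, no filter with a pseudocount of 0.1 RPKM.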

Additional observations from a re-analysis of the deposited data

How the results depend on the processing

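The number of the 9 genes called after 5-FU, 2 without and 2 with antibiotics, was 1 and 1 with a filter of 5 RPKM, which leaves Cebpd alone to test, 5 and 4 after rescaling to one total, where Irf8 and Gfi1 entered only through the 5-FU groups in which they are high, and 3 and 3 with no filter. Leaving out 1 library gave 1 to 2 without and 2 with antibiotics. None of the 9 genes was called in the antibiotic comparisons or the interaction under any alternative run. Among the named genes, the signs that turned when 1 library was left out were all of uncalled changes: Cebpd after 5-FU (-0.081 to 0.40), the Cebpd interaction (-0.44 to 0.041), the Cebpg interaction (-0.20 to 0.067), and Ddit3 at steady state (-0.19 to 0.045), after 5-FU (-0.16 to 0.028) and in the interaction (-0.11 to 0.12). The Ddit3 interaction was also -0.00349 after rescaling. Calls over all genes ranged from 941 to 2337 without and from 1460 to 2896 with antibiotics, from 1 to 25 at steady state, 6 to 50 after 5-FU and 0 to 8 for the interaction. Rescaling raised the share of higher calls from 45.1% to 81.5% without and from 45.4% to 74.6% with antibiotics. The cause of these shifts was not tested. Depth of 27.9 to 54.8 M reads leaves few reads behind values below 1 RPKM. The labels carry no replicate numbers, and those used here follow the order of the samples. No label says which libraries share an animal, so no pairing by animal could be made. The files do tie each library with antibiotics to 1 without by i7 index, and a fit with that index as a term changed no call of the 4 genes, although the SE of Cebpd fell from 0.28 to 0.14 and the unadjusted p of Cebpg at steady state from 0.0493 to 0.00638 (adjusted p = 0.114).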
